A study of Mus musculus with 30 samples.

Results

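Ribosome biogenesis genes are among the best known transcriptional targets of MYC, and all cells of this study carried added c-MYC. The set described here holds 37 such genes, chosen by name for their part in building the ribosome, with earlier results of these data known. A member was used if its TPM (a transcript level corrected for transcript length and library size) reached 1 in at least 3 of the 30 libraries. This left 36 of the 34724 gene rows of the table. Rrp12 was not used here. All 36 members reached 1 TPM in every one of the 30 libraries, so the filter on low values removed none of them.

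The cells were mouse embryonic fibroblasts without a working Cry2 gene (Cry2-/-), the circadian repressor that is also studied as a regulator of protein turnover. Every line stably overexpressed c-MYC and, beside it, an empty vector (EV), CRY2 wild type (WT) or CRY2 carrying D325H, S510L or F428D. Each line was plated at 150 cells per well (low density) or 500 cells per well (high density), kept at 3% oxygen in medium with 15% serum, and collected after 14 days (low) or 11 days (high), so that density and time in culture cannot be told apart. Each of the 10 groups had 3 biological replicates, each pooled from 2 wells. How many times each construct was introduced is not in the labels, so a construct may stand for a single line, and a p-value here covers only the spread of the 3 samples per group. Whether the added c-MYC and CRY2 sequences are counted in the rows Myc and Cry2 is not given in the sources used here, and no protein was measured.

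A ribosome is assembled in the nucleolus, where RNA polymerase I transcribes the ribosomal DNA (rDNA) into a long precursor RNA. Small nucleolar ribonucleoproteins (snoRNPs) modify that precursor, the box C/D class by methylation and the box H/ACA class by pseudouridylation. The small subunit processome folds and cuts the part that becomes the small subunit, and a separate series of assembly factors matures the large subunit. MYC, paired with MAX, binds the E-box sequence CACGTG and raises transcription of many of these factors, so that ribosome output follows growth signals. Dividing fibroblasts depend on this pathway for protein synthesis.

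The E-box was looked for in the promoters of the members, taken from RefSeq on mouse build GRCm38.p6 as 250 bases before and 50 bases after each start site. CACGTG is its own reverse complement, so a single search covers both strands, and no other motif was searched. A promoter was at hand for 31 of the 36 members. CACGTG was present in 6 of the 31 (19.4%), against 11.7% of the 9780 tested genes with a promoter and 8.09% of all 27025 genes of the table with one. Within the 250 bases before the start it was present in 1 member, Nop2 (3.23%), against 9.83% of tested genes. In the other 5 the match lay after the annotated start. These matches describe letters in a window and say nothing of binding, which was not measured. The 30-base windows around the matches are shown because MYC and MAX recognise this motif, which stands in capitals, each read 5′ to 3′ on the strand of its gene.
Nop2 (chr6:125131811-125131840, plus strand): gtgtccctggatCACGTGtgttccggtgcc
Pes1 (chr11:3963965-3963994, plus strand): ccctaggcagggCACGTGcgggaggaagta
Wdr43 (chr17:71616220-71616249, plus strand): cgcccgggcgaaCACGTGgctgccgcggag
Grwd1 (chr7:45830740-45830769, minus strand): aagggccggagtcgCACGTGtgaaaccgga
Utp20 (chr10:88826765-88826794, minus strand): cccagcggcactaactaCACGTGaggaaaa
Mybbp1a (chr11:72441347-72441376, plus strand): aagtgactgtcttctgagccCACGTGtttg
The first base of the motif lay at position -60 for Nop2, 3 for Pes1, 18 for Wdr43, 35 for Grwd1, 38 for Utp20 and 41 for Mybbp1a, counted from the start site. The whole stretch before the start of Nop2, a methyltransferase of large subunit ribosomal RNA, is given because it held the single upstream match. It covers chr6:125131633-125131882 of GRCm38.p6 on the plus strand.
Nop2 upstream: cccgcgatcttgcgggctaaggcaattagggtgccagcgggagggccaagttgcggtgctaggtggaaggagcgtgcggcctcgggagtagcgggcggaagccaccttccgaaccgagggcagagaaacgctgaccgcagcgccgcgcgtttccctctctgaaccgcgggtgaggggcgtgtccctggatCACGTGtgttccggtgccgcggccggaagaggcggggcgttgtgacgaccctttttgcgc

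Some libraries stood apart from their groups before any test. The level of the whole set was followed as the sum of the TPM of its 36 members, which made up 0.371% to 0.886% of a library. F428D low 1 had a sum of 4131, against 6830.2 and 6953 in its fellow libraries. WT low 2, at 6054, lay below WT low 1 and 3, and D325H low 3, at 5928, above D325H low 1 and 2. In another measure, D325H high 3 and F428D high 2 had 16258 and 15910 genes above 0 TPM, against 18389 to 19269 in the other libraries. The reason is not known. Fibroblast markers were present, with Col1a1 at 529 to 5931 TPM and all 11 of the list reaching 1 TPM. Endothelial markers summed to at most 1.46 TPM, and Ptprc and Myod1 stayed under 0.5 TPM in every library. Of the 5 macrophage markers 1, Cd68, reached 1 TPM in some library, and the list summed to at most 6.96 TPM. Of the 5 skeletal muscle markers 1, Des, did so, and that list summed to at most 2.68 TPM. All 7 chondrocyte markers also reached 1 TPM, with the cartilage collagen Col2a1 at 135 to 3878 TPM, so the libraries did not carry fibroblast markers alone. The epithelial list was split, with Epcam and Cldn4 under 0.5 TPM in every library but Krt19, a keratin, at 28.0 to 494 TPM.

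The set was at its lowest in cells with D325H. At low density the summed TPM was 7592, 7209 and 7886 in EV, 7951, 6054 and 8533 in WT, 3561, 4297 and 5928 in D325H, 5244, 5774 and 6541 in S510L and 4131, 6830.2 and 6953 in F428D. All 3 D325H low libraries lay below all 3 WT and all 3 EV libraries, and D325H low 1 was the lowest of the 30. At high density the sum was 7651, 7283 and 6794 in EV, 7279, 7310.1 and 6922 in WT, 6257, 4745 and 6391 in D325H, 7301, 8296 and 6986 in S510L and 6625, 6741 and 6904 in F428D. There, too, the D325H libraries lay below those of the other 4 constructs, D325H high 2 the farthest.

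Ordered by mean ± SD (n = 3 libraries each), the groups ran from EV low (7562 ± 339), S510L high (7528 ± 684), WT low (7513 ± 1296), EV high (7242 ± 429.8) and WT high (7171 ± 215) through F428D high (6757 ± 141), F428D low (5971 ± 1595), S510L low (5853 ± 652) and D325H high (5798 ± 914) to D325H low (4595 ± 1211). Neighbours in this order had overlapping libraries, with the exception of WT high and F428D high. Npm1 alone supplied 35.6% to 43.4% of the sum. D325H low was also the lowest group without Npm1 (2819 ± 715, against 4593 ± 861 in WT low).

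**Figure D1:**
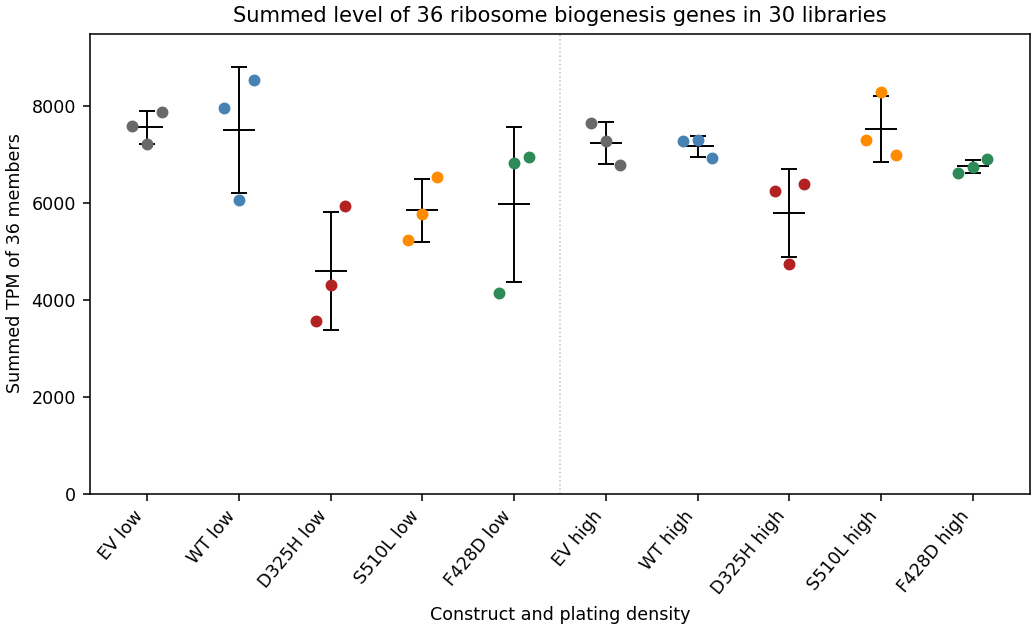
Summed TPM of the 36 ribosome biogenesis genes (y axis) in each of 30 libraries (points), by construct and plating density (x axis), with the group mean and SD as black bars and low density left of the dotted line. D325H low 1 is the lowest library, F428D low 1 lies well under its group, and the D325H groups lie lowest at each density.

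D325H low had the lowest group mean for 30 of the 36 members, D325H high for 5 (Utp20, Heatr1, Rrs1, Pprc1 and Polr1a) and F428D low for Tcof1, whereas over all 14093 genes tested D325H low was lowest for 16.6%. WT low had the highest mean for 16 members and S510L high for 12. The ratio of the highest to the lowest group mean ran from 1.30 for Pes1 to 2.57 for Utp20, with a median of 1.70 against 1.51 over the 8391 tested genes with a mean of at least 10 TPM. After Utp20 the widest ratios were those of Rrp9 (2.24), Nhp2 (2.23), Gar1 (2.00), Mrto4 (1.99) and Nop56 (1.95). The narrowest, beside Pes1, were those of Nop14 (1.39), Polr1a (1.40), Wdr74 (1.42) and Tcof1 (1.42).

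**Figure D2:**
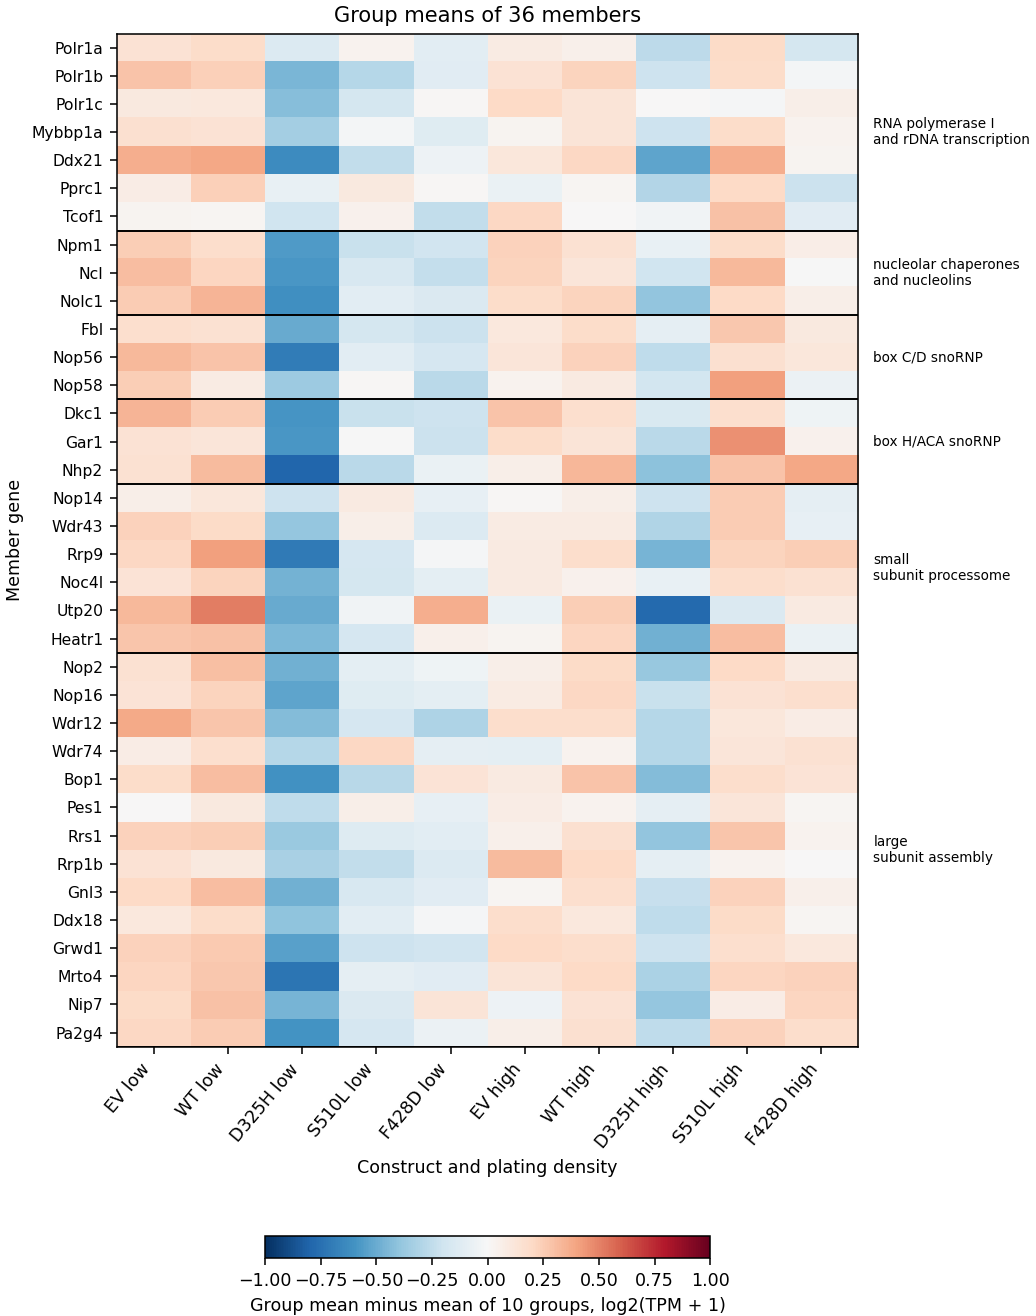
Group mean of each of the 36 members (rows, ordered by role) in the 10 groups (columns), as the difference from the mean of the 10 groups in log2(TPM + 1), blue below and red above. The D325H low column lies below 0 in all 36 rows, and the darkest cell of the D325H high column is that of Utp20.

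The comparison of D325H with WT at low density asked how this altered CRY2 sets the pathway apart from the wild type protein, in cells that all have added c-MYC. Differences are given in log2(TPM + 1), with the standard error of a limma fit over all 30 libraries, and a gene is called at a Benjamini-Hochberg adjusted p under 0.05 over 14093 genes. All 36 members lay lower in D325H, 31 were called lower and 0 higher. The background was 14.1% of all genes called lower. The median difference of the members was -0.72, against -0.0038 over all genes tested. Fold changes on this scale slightly understate those of TPM.

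The genes grouped here under rDNA transcription had the smallest median difference of the 6 roles (-0.49, 4 of 7 called lower). The coactivator Pprc1 was counted among the 7. Polr1b, a core catalytic subunit of RNA polymerase I, was at low density 35.6, 32.7 and 37.1 TPM in EV, 36.4, 26.7 and 40.2 in WT, 14.6, 20.4 and 29.0 in D325H, 19.3, 21.3 and 30.3 in S510L and 19.7, 30.7 and 30.1 in F428D. At high density Polr1b was at 34.5, 30.3 and 30.4 TPM in EV, 35.0, 34.6 and 31.2 in WT, 23.9, 22.5 and 27.5 in D325H, 32.0, 37.2 and 29.0 in S510L and 28.8, 27.8 and 27.9 in F428D. D325H low 1 and 2 lay below every WT library, while D325H low 3 lay above WT low 2. Its difference between D325H and WT at low density was -0.70 ± 0.20 (limma, adjusted p = 0.0102). Ddx21, an RNA helicase that couples rDNA transcription to processing, showed the largest fall of this role, from 111, 81.2 and 100.5 TPM in WT to 31.8, 43.0 and 76.4 TPM in D325H, with no overlap (-1.02 ± 0.26, adjusted p = 0.00583). Polr1c, a subunit that polymerase I shares with polymerase III, fell by 0.53 and Mybbp1a, a nucleolar partner of the polymerase, by 0.49. The remaining 3 of the 7 were not called. They were Polr1a, the largest polymerase subunit (-0.32 ± 0.15, adjusted p = 0.117), Pprc1, a transcriptional coactivator (-0.32 ± 0.15, 0.121), and Tcof1, the nucleolar protein treacle (-0.21 ± 0.16, 0.341). Polr1a was at 37.4, 44.3 and 55.5 TPM in D325H low against 55.8, 52.8 and 61.6 TPM in WT low.

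All 3 abundant nucleolar chaperones fell. Npm1, nucleophosmin, was the most abundant member, at 1342, 1669.9 and 2317 TPM in D325H low and 3044, 2435 and 3282 TPM in WT low. The groups did not overlap, and the difference was -0.74 ± 0.16 (limma, adjusted p = 0.00173). Ncl, nucleolin, was at low density 770.0, 702 and 697 TPM in EV, 739, 544 and 773 in WT, 287, 379 and 538 in D325H, 443, 525 and 608 in S510L and 345, 605 and 580.4 in F428D. At high density Ncl was at 738, 679.5 and 627 TPM in EV, 649, 655 and 598 in WT, 562, 404 and 581 in D325H, 698, 849.8 and 656 in S510L and 599, 566 and 583 in F428D. The highest D325H low library came within a few TPM of the lowest WT low library, and S510L high 2 held the highest level of all (D325H minus WT at low density -0.80 ± 0.20, adjusted p = 0.00528). Nolc1, which escorts snoRNPs, was at 72.1, 76.7 and 128 TPM against 194, 129.7 and 207 TPM and differed by -0.95 ± 0.23.

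Of the box C/D snoRNP proteins 2 of 3 were called. Nop56, a scaffold of the particle, was at low density 319.8, 318 and 337 TPM in EV, 343, 232 and 402 in WT, 117, 144 and 242 in D325H, 206, 234 and 293 in S510L and 135, 301 and 305 in F428D. At high density Nop56 was at 316, 285 and 249 TPM in EV, 319, 318 and 279 in WT, 255, 166 and 242 in D325H, 277, 319.6 and 275 in S510L and 299, 264 and 281 in F428D. D325H low 3 exceeded WT low 2, and the other D325H low libraries lay below all of WT low (-0.99 ± 0.26, limma, adjusted p = 0.00692). Fbl, fibrillarin, the methyltransferase of the particle, was at 92.6, 103 and 129 TPM against 175, 133 and 211 TPM (-0.66 ± 0.20). Nop58, the partner of Nop56, stood at -0.45 ± 0.18 without a call (adjusted p = 0.0696).

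All 3 box H/ACA proteins were lower. Dkc1, dyskerin, the pseudouridine synthase, was at low density 146, 146 and 163 TPM in EV, 151, 101 and 192 in WT, 50.6, 82.9 and 117 in D325H, 80.1, 101 and 132 in S510L and 64.9, 128 and 132 in F428D. At high density Dkc1 was at 159, 148 and 132 TPM in EV, 141, 143 and 120.1 in WT, 119, 89.4 and 117 in D325H, 136, 142 and 125 in S510L and 121, 109 and 118 in F428D. At low density D325H low 3 lay above WT low 2, and the difference between these groups was called (-0.85 ± 0.26, limma, adjusted p = 0.0176). Nhp2, a core protein of the same particle, fell further, from 189, 117 and 224 TPM to 63.3, 73.8 and 105 TPM without overlap (-1.10 ± 0.28, adjusted p = 0.00513). Gar1, its other partner, was at 64.2, 80.3 and 119 TPM against 146, 124 and 149 TPM, and D325H low 3 again lay closest to WT (-0.70 ± 0.22).

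The 6 small subunit processome members were all called lower. Rrp9, which binds the guide snoRNA of the processome, was at low density 52.0, 62.1 and 60.8 TPM in EV, 70.0, 46.6 and 92.1 in WT, 23.0, 30.4 and 39.8 in D325H, 37.4, 42.4 and 56.4 in S510L and 28.9, 58.1 and 73.8 in F428D. At high density Rrp9 was at 65.6, 48.7 and 48.3 TPM in EV, 54.6, 61.9 and 54.3 in WT, 44.9, 25.5 and 41.1 in D325H, 54.2, 65.7 and 57.0 in S510L and 60.6, 64.5 and 54.8 in F428D. It showed the largest fall of the 36 members at low density, every D325H library lying below every WT library, although the WT low libraries themselves spread widely (-1.12 ± 0.27, limma, adjusted p = 0.00404). Utp20, a large scaffold protein, was at 12.5, 12.2 and 23.6 TPM in D325H low against 39.1, 27.5 and 30.6 TPM in WT low, without overlap (-1.01 ± 0.26). Heatr1, another scaffold, was at 13.9, 17.5 and 27.7 TPM against 36.7, 25.5 and 35.7 TPM (-0.74 ± 0.22), and here D325H low 3 lay above WT low 2. The other processome proteins stood at -0.69 (Noc4l), -0.58 (Wdr43) and -0.32 (Nop14).

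Among large subunit assembly factors 13 of 14 were called lower. Bop1, Pes1 and Wdr12 form a single complex needed for processing of large subunit RNA, and all 3 were called. Bop1 was at low density 74.5, 66.4 and 81.6 TPM in EV, 91.9, 65.0 and 87.8 in WT, 34.9, 37.3 and 58.0 in D325H, 43.7, 52.6 and 66.0 in S510L and 46.1, 85.4 and 91.8 in F428D. At high density Bop1 was at 78.1, 64.9 and 65.0 TPM in EV, 80.0, 79.9 and 78.4 in WT, 60.3, 35.5 and 50.9 in D325H, 71.7, 79.6 and 69.3 in S510L and 71.8, 71.0 and 71.4 in F428D. All D325H low libraries lay below those of WT low (-0.92 ± 0.22, limma, adjusted p = 0.00363). Wdr12 was at 16.9, 23.5 and 35.6 TPM against 44.4, 32.8 and 44.8 TPM (-0.71 ± 0.22, adjusted p = 0.0205). Pes1 was at 98.8, 106 and 120.3 TPM against 145, 122 and 149 TPM (-0.35 ± 0.09, adjusted p = 0.00561), the smallest called fall of this role. The difference between these 3 differences was not tested.

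Mrto4, a factor of the nascent large subunit, fell from 112, 82.1 and 118 TPM to 38.2, 49.9 and 69.0 TPM and had the lowest p of the 36 (-1.00 ± 0.20, limma, adjusted p = 0.00113). Nop2 was at 40.9, 43.8 and 58.2 TPM against 87.0, 62.4 and 100.2 TPM (-0.78 ± 0.18). Gnl3, nucleostemin, a nucleolar GTPase of proliferating cells, was at 75.5, 81.9 and 130.4 TPM against 176, 142 and 169 TPM (-0.79 ± 0.19). In both genes the D325H libraries lay below WT without overlap, D325H low 3 being the nearest. The other called members were Pa2g4 (-0.86), Grwd1 (-0.80), Nip7 (-0.75), Nop16 (-0.75), Rrs1 (-0.61), Ddx18 (-0.59) and Wdr74 (-0.45). Rrp1b stood at -0.42 ± 0.17 without a call (adjusted p = 0.0697).

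The libraries of 23 members lay wholly below WT, against a background of 13.4% of all genes. The count of 31 depended on the samples. With only the 6 libraries of these groups fitted, 0 members were called at the same median, and 247 genes in all. That fit has fewer residual degrees of freedom and takes its spread from these groups alone, whereas the 31 calls use a spread shared with all groups. The SD of the members' mean log2 value was 0.34 in D325H low and 0.27 in WT low, against 0.23 pooled over groups. The part of each in the drop was not tested. The count was 14 with D325H low 1 left out, 19 with WT low 3, 20 with WT low 1, 23 with D325H low 2 and 35 with D325H low 3 left out, and the median then ran from -0.54 to -0.94.

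**Figure D3:**
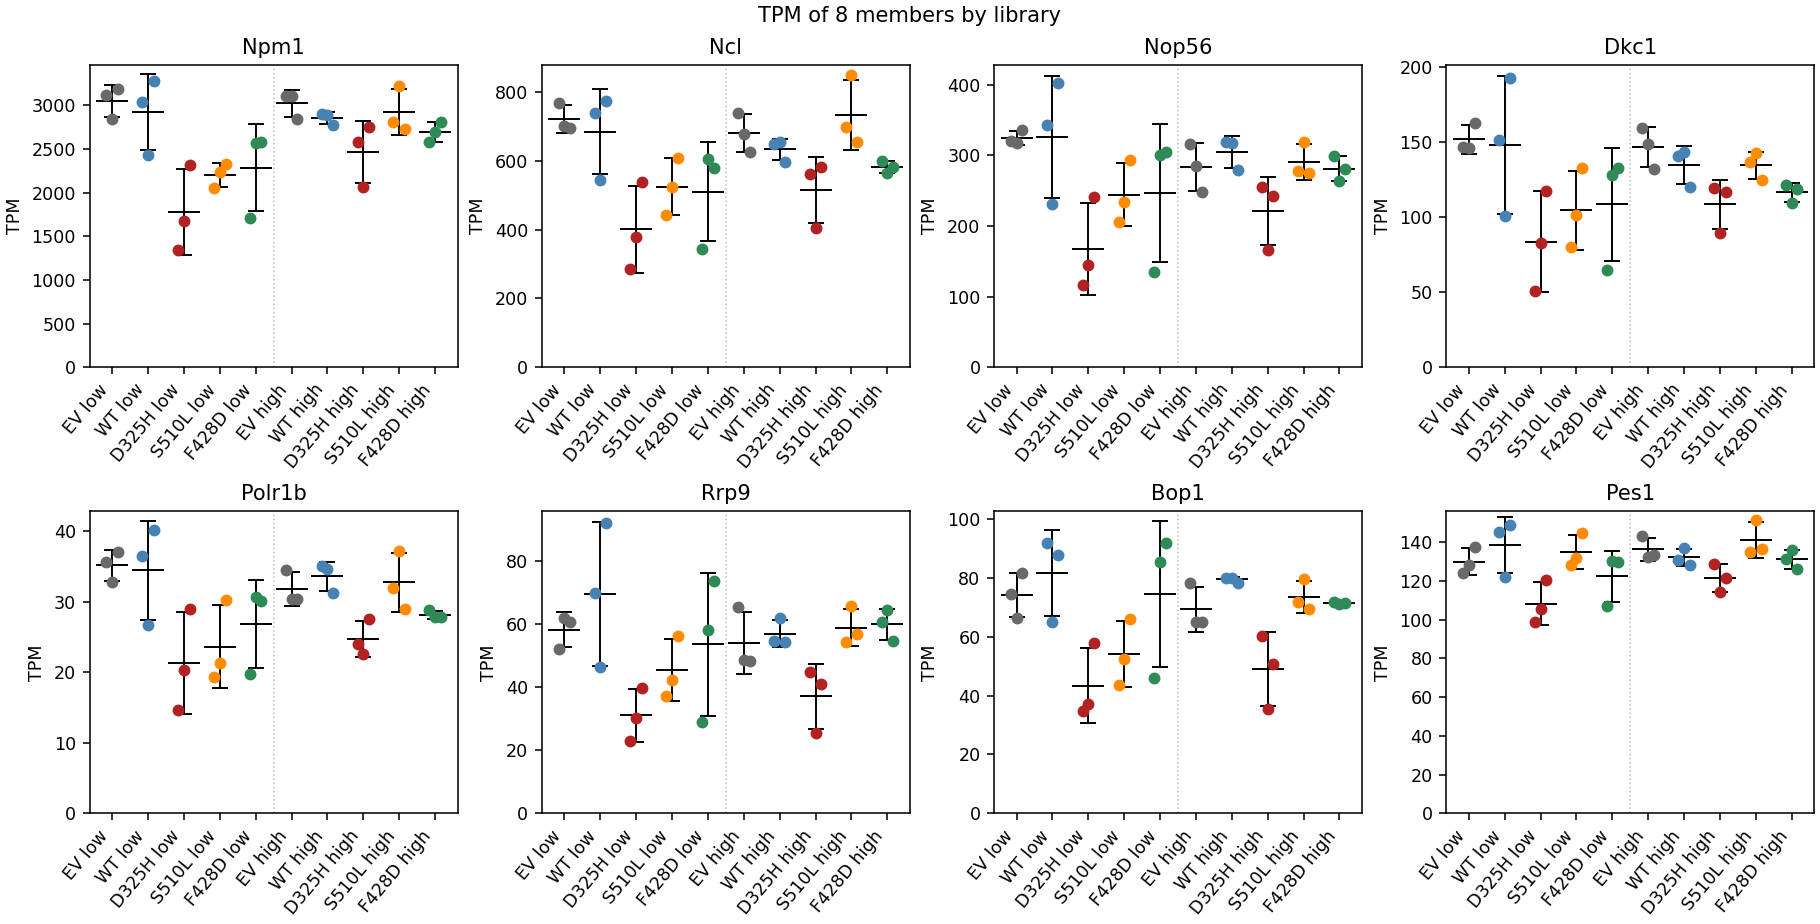
TPM (y axis, from 0) of 8 members in all 30 libraries, by construct and density (x axis), with the mean and SD of each group of 3 as black bars. D325H low has the lowest group mean in all 8 panels, and F428D low 1 lies under its group in each of them.

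At high density the members also lay lower in D325H than in WT, with fewer calls. All 36 members were again below WT, and 4 were called lower and 0 higher (background 4.73% called lower), with a median of -0.39 against 0.01 over all genes. Without the filter on low values, which leaves more genes to adjust over, 1 of the 36 was called. Utp20 was at 14.2, 10.5 and 13.0 TPM in D325H and 30.1, 25.5 and 24.1 TPM in WT, a difference close to that at low density (-1.02 ± 0.26, limma, adjusted p = 0.0142). Bop1 was at 60.3, 35.5 and 50.9 TPM against 80.0, 79.9 and 78.4 TPM (-0.72 ± 0.22, adjusted p = 0.0374). Heatr1 was at 19.8, 15.3 and 20.8 TPM against 32.3, 30.4 and 29.0 TPM (-0.69 ± 0.22, adjusted p = 0.0423).

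The fourth was Nop2, at 53.3, 42.3 and 57.2 TPM against 73.6, 78.6 and 74.8 TPM (-0.57 ± 0.18, limma, adjusted p = 0.0439). In each of these 4 genes D325H high 2 was the lowest library, and the groups did not overlap. For 32 members all D325H libraries lay below all WT libraries (background 19%). Npm1 was at 2585, 2060.3 and 2749 TPM against 2900.1, 2887 and 2773 TPM, a difference of -0.22 ± 0.16 that was not called (adjusted p = 0.397). Rrp9 was at 44.9, 25.5 and 41.1 TPM against 54.6, 61.9 and 54.3 TPM (-0.64 ± 0.27, adjusted p = 0.131). The count became 0 without D325H high 2 (median -0.24) or without WT high 1, and 1 without WT high 2 or WT high 3, 2 without D325H high 1 and 5 without D325H high 3.

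Whether the D325H difference itself changed with density was tested as an interaction. The median was 0.26, and 0 members were called (limma; 3 at unadjusted p under 0.05), with 0 genes called in the whole table (background 0%).

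**Figure D4:**
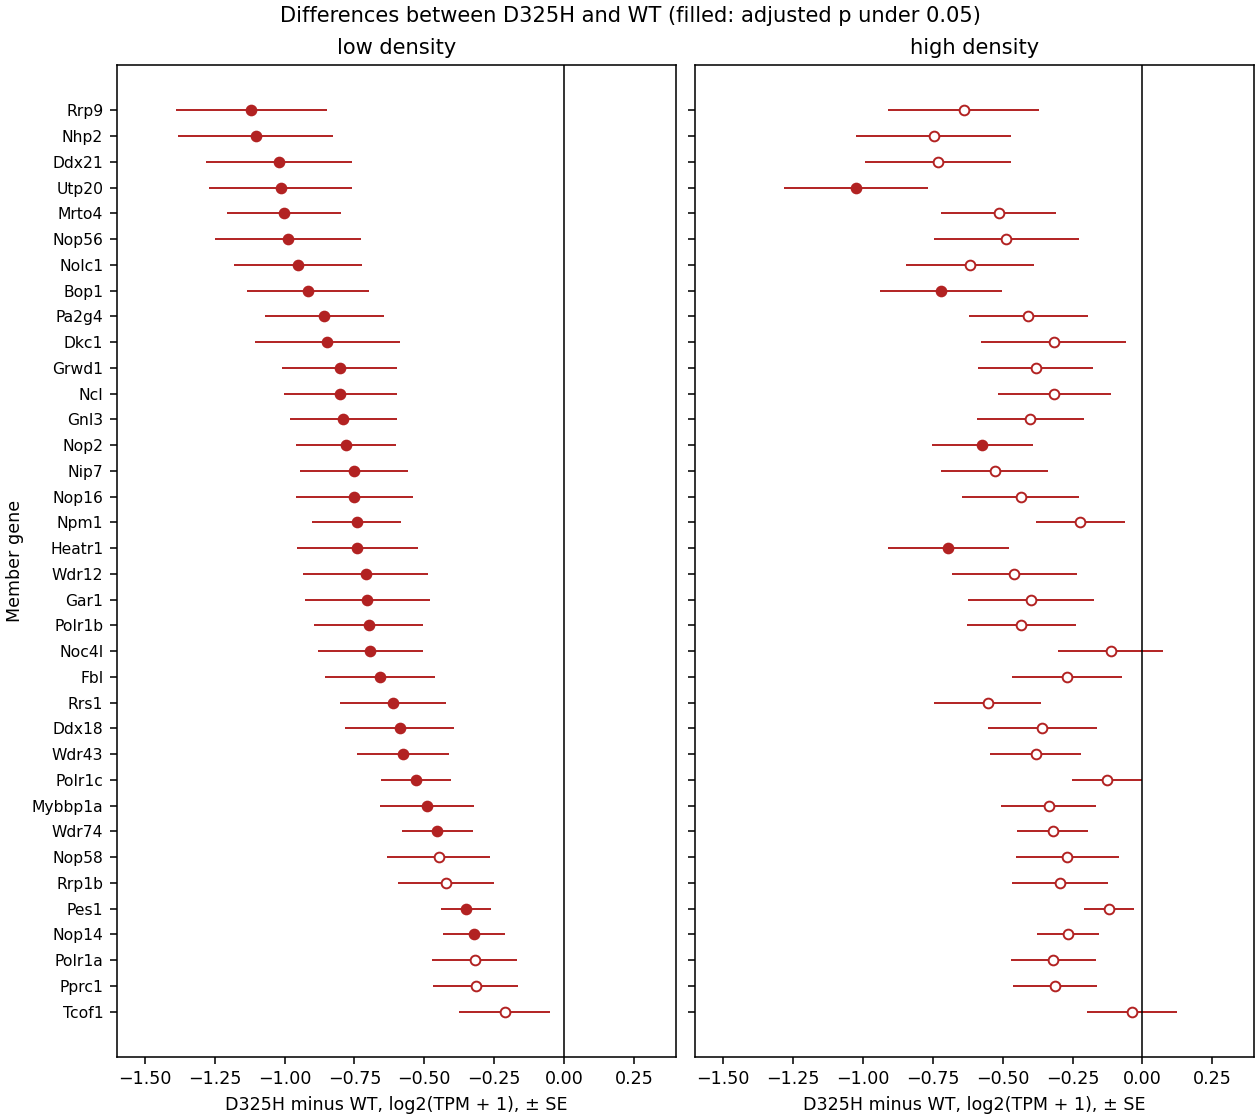
Difference between D325H and WT in log2(TPM + 1) (x axis) with its standard error for each of 36 members (y axis, ordered by the low-density value), at low density (left) and high density (right). Filled points are called, 31 on the left and 4 on the right, and all points lie left of 0 in both panels.

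At low density the summed level of S510L lay between those of WT and D325H. No member was called against WT (background 23.3% of all genes called), 14 had an unadjusted p under 0.05 in limma, and 34 of 36 were below 0, with a median of -0.39 against 0.04 over all genes. Polr1b was at 19.3, 21.3 and 30.3 TPM in S510L, against 36.4, 26.7 and 40.2 TPM in WT (-0.53 ± 0.20, adjusted p = 0.0518). Bop1 was at 43.7, 52.6 and 66.0 TPM against 91.9, 65.0 and 87.8 TPM (-0.59 ± 0.22, adjusted p = 0.0542). These had the smallest p of the 36, and in both the highest S510L library overlapped WT low 2. For 5 members (Npm1, Wdr12, Ddx21, Utp20 and Nip7) the libraries lay wholly below WT (background 13.2%). The count of called members became 9 without WT low 2, 5 without S510L low 3 and 3 after quantile normalization or median-ratio scaling.

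At high density 0 members were called between S510L and WT (limma, background 9.17% called; 0 members at unadjusted p under 0.05), with a median of 0.06 against 0.10 over all genes. Relative to all genes the members thus stood slightly lower, and the median itself was -0.05 after median-ratio scaling and -0.02 after quantile normalization. With only the 6 libraries of these groups fitted, 2 members were called. Tcof1 was at 94.8, 112 and 96.3 TPM against 79.8, 86.1 and 81.4 TPM (0.29 ± 0.16, limma, adjusted p = 0.286). Nop58 was at 368, 438 and 331 TPM against 311, 308 and 286 TPM (0.32 ± 0.18, adjusted p = 0.3). Both groups were without overlap, as they were for 7 members above WT (background 29.3%) and 1, Polr1c, below it (background 11.1%).

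Between F428D and WT no member was called at either density. At low density limma called 0 of 36 (background 0.0142% of all genes called; 6 at unadjusted p under 0.05), although all 36 were below 0 with a median of -0.33. That median rested on F428D low 1. Without it the median was -0.07 and 27 members were below 0. Wdr12 was at 17.3, 30.7 and 34.7 TPM against 44.4, 32.8 and 44.8 TPM (-0.59 ± 0.22, adjusted p = 0.7), and F428D low 1 lay far below the other F428D libraries.

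Npm1 was at 1708, 2573 and 2576 TPM in F428D low against 3044, 2435 and 3282 TPM in WT low (-0.37 ± 0.16, limma, adjusted p = 0.714). At high density 0 members were called (background 0.0639%; 0 at unadjusted p under 0.05) and the median was -0.11, against -0.06 over all genes. Pprc1 (-0.23 ± 0.15) and Polr1a (-0.23 ± 0.15) had the smallest p, with adjusted values of 0.931 and 0.938. The libraries of 8 members lay wholly below WT (background 14.7%) and those of Wdr74 and Noc4l above it (background 5.34%). The comparisons of D325H, S510L and F428D with WT share the WT libraries.

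No member was called between wild type CRY2 and the empty vector. In limma 0 of 36 were called at low density (background 0.305%) and 0 at high density (background 0.0284%), with 0 members at unadjusted p under 0.05 in either. The medians were 0.04 and 0.07, against -0.01 and -0.03 over all genes. Cry2 itself was at 3.82, 5.55 and 4.40 TPM in EV low and 97.9, 44.1 and 84.6 TPM in WT low, higher in each WT library than in any EV library. Pprc1 (0.16 ± 0.15, adjusted p = 0.955) and Pes1 (0.09 ± 0.09, 0.96) had the smallest p at low density. At high density these were Tcof1, at 79.8, 86.1 and 81.4 TPM in WT and 104, 95.5 and 87.7 TPM in EV (-0.21 ± 0.16, adjusted p = 0.848), and Utp20, at 30.1, 25.5 and 24.1 TPM against 26.3, 18.4 and 19.4 TPM (0.31 ± 0.26, 0.857). The libraries of 6 members, Bop1 and Nhp2 among them, lay wholly above EV at high density (background 10.9%) and those of Tcof1 below (background 17.2%).

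The empty vector line gave another reference, taken as the mean of the differences at the 2 densities. D325H was lower than EV in 34 of 36 members (background 13.7% called lower) and higher in 0, with a median of -0.53. The exceptions were Tcof1 (-0.24 ± 0.11, limma, adjusted p = 0.134) and Pprc1 (-0.19 ± 0.11, 0.206). The largest falls were those of Ddx21 (-0.81 ± 0.18, 0.00313), Utp20 (-0.77 ± 0.18, 0.0041) and Rrp9 (-0.74 ± 0.19, 0.00779). S510L differed from EV in 0 members (background 18.7%; 3 at unadjusted p under 0.05; median -0.10) and F428D in 0 (background 6.17%; 9 at unadjusted p under 0.05; median -0.15). Over all genes these medians were 0.05 for S510L and -0.06 for F428D. The S510L count became 2 after quantile normalization or median-ratio scaling and 5 with only the groups compared fitted. Here too the comparisons share the EV libraries.

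The altered proteins were also set against each other directly, averaged over density. D325H was lower than S510L in 24 members (background 16.9%) and lower than F428D in 15 (background 13.6%), and higher in 0, with medians of -0.39 and -0.32. The first count became 8 without D325H low 1, D325H high 2 or S510L high 2, 11 without S510L low 3, 14 without D325H low 2, 15 without the filter, 9 after median-ratio scaling and 12 after quantile normalization. The second became 8 without D325H low 1, D325H high 2 or F428D low 3, 29 without F428D low 1 and 4 with only the groups compared fitted. S510L was higher than F428D in 3 members (background 25.5% called higher), namely Nop58 (0.37 ± 0.13, limma, adjusted p = 0.029), Tcof1 (0.34 ± 0.11, 0.0228) and Nop14 (0.25 ± 0.08, 0.0153). The median of that comparison was 0.07 and lay below that of all genes (0.11), and it turned to -0.04 after median-ratio scaling, where 0 members were called.

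Few members were called between plating densities. Over the mean of the 5 constructs 1 member was called higher at high density (background 3.48%) and 0 lower (background 16.6%). The count called higher thus lay near the background. In all, 8 members had an unadjusted p under 0.05, and the median was 0.11 against -0.06 over all genes. That member was Npm1 (0.23 ± 0.07, limma, adjusted p = 0.0299). Its values at high density were 3107, 3112 and 2848 TPM in EV, 2900.1, 2887 and 2773 in WT, 2585, 2060.3 and 2749 in D325H, 2807, 3221 and 2734 in S510L and 2585, 2689.6 and 2812 in F428D. At low density Npm1 was at 3119, 2839 and 3193 TPM in EV, 3044, 2435 and 3282 in WT, 1342, 1669.9 and 2317 in D325H, 2058, 2235 and 2328 in S510L and 1708, 2573 and 2576 in F428D. The libraries of S510L and F428D did not overlap between densities, while those of EV, WT and D325H did. Without the filter on low values 0 members were called, 4 were after quantile normalization and 5 after median-ratio scaling, and the count ran from 0 to 5 as single libraries were left out.

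Within a construct 0 members were called between densities in limma. The medians were -0.09 in EV (background 0.0781% called; 0 members at unadjusted p under 0.05), -0.08 in WT (0%; 0), 0.20 in D325H (4.11%; 4), 0.31 in S510L (1.04%; 9) and 0.16 in F428D (1.04%; 0). Over all genes tested the medians were -0.05 in EV, -0.07 in WT, -0.07 in D325H, -0.01 in S510L and -0.11 in F428D. The members' median in WT thus lay close to that of all genes. In S510L 34 of 36 members were above 0, and the libraries of 17 lay wholly higher at high density (background 11%), among them Ddx21, at 51.7, 60.3 and 76.7 TPM at low and 94.9, 115 and 78.8 TPM at high density (0.61 ± 0.26, adjusted p = 0.239). In D325H the nearest to a call was Polr1c, at 56.5, 69.9 and 77.3 TPM against 90.6, 88.0 and 94.2 TPM (0.43 ± 0.12, adjusted p = 0.0514). In D325H 1 member, Polr1c, had libraries wholly higher at high density (background 6.41%), and in F428D 1, Npm1 (background 3.94%). In EV 2 members lay wholly higher (background 5.67%) and 6 wholly lower (background 14.7%) at high density. The F428D median was -0.10 without F428D low 1.

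The density difference of S510L against that of WT had a median of 0.40 with all 36 members above 0, but 0 were called (background 0.071%; 1 at unadjusted p under 0.05, limma). For F428D the interaction median was 0.24 with 0 called (background 0.0355%; 0 at unadjusted p under 0.05) and -0.05 without F428D low 1.

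**Figure D5:**
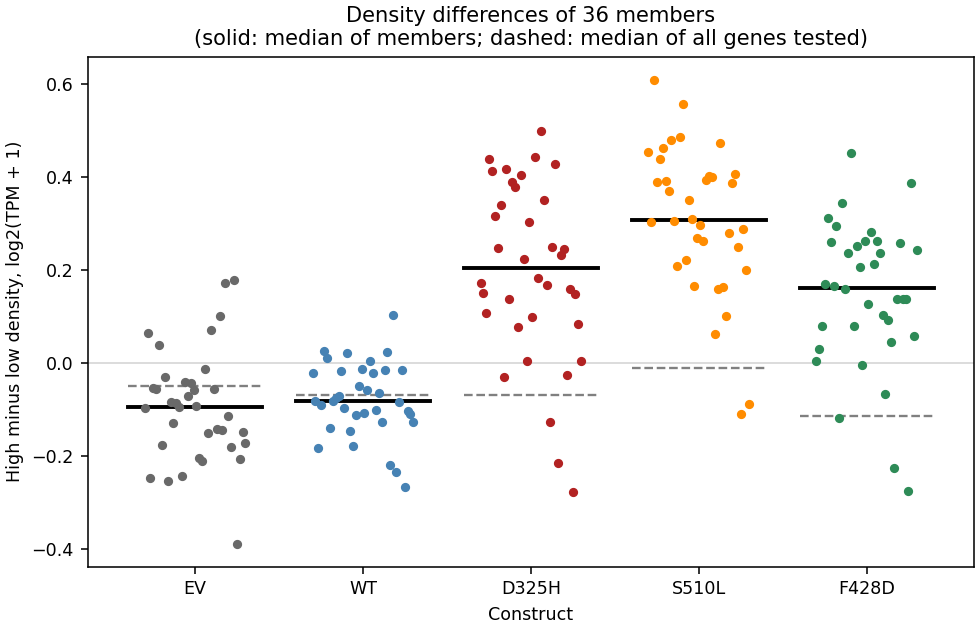
High minus low density in log2(TPM + 1) (y axis) for each of 36 members (points) in the 5 constructs (x axis), with the median of the members as a solid line and that of all genes tested as a dashed line. The members' medians lie below 0 in EV and WT and above 0 in D325H, S510L and F428D, and 0 of the points are called. The medians of all genes lie below 0 in all 5 constructs.

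Other genes of the pathway were followed in 5 further lists, of which 107 of 113 genes were tested. Between D325H and WT at low density 1 was higher and 56 were lower (median -0.45), where 14.8% of all genes tested were called higher and 14.1% lower. By list the lower genes were 3 of 11 polymerase I factors, 19 of 34 small subunit factors, 24 of 41 large subunit factors, 6 of 10 snoRNP factors and 4 of 11 exosome subunits, the exosome being the nuclease that trims precursor RNA. At high density 0 were higher and 16 lower (median -0.27), against 5.46% and 4.73% of all genes. S510L against WT gave 8 higher and 12 lower at low density (median -0.16), against 15% and 8.3% of all genes. At high density it gave 3 higher and 0 lower (median 0.07), against 7.39% and 1.78%. F428D gave 0 of either at both densities, where 0.0142% (low) and 0.0639% (high) of all genes were called. The medians were -0.21 and -0.07, against -0.02 and -0.06 over all genes. Between densities, over the 5 constructs, 5 were higher and 4 lower at high density, against 3.48% and 16.6% of all genes.

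MYC and its partners were looked at beside the members. The Myc row was at 29.9, 35.9 and 43.9 TPM in EV low, 36.7, 30.6 and 65.6 in WT low, 25.1, 36.8 and 26.0 in D325H low and 57.1, 38.1 and 79.5 in D325H high. Group means ran from 29.3 TPM (D325H low) to 58.2 TPM (D325H high), with libraries of the groups overlapping widely, and Myc was called in none of the 15 comparisons in which the MYC network was listed (limma, lowest adjusted p 0.0916). Between D325H and WT its difference was -0.52 ± 0.34 at low density (adjusted p = 0.256) and 0.29 ± 0.34 at high density (0.627). Of the 10 tested network genes, Max, the obligate partner of MYC, fell between WT and D325H at low density (-0.33 ± 0.11, adjusted p = 0.0271). Mxd3, which competes with MYC for MAX, was higher in D325H at high density (1.09 ± 0.25, 0.00988) and in S510L at low (1.29 ± 0.25, 0.000775) and high density (1.09 ± 0.25, 0.0083). Mlx, a relative of MAX, was lower in D325H at high density (-0.51 ± 0.12, 0.0118). In S510L Mxd4, another MAX partner, was lower at low density (-0.64 ± 0.17, 0.008), and Mycl was higher at both densities (0.86 and 1.02) at levels of at most a few TPM. Max was also lower in D325H than in EV over both densities (-0.27 ± 0.08, 0.0135). Between densities Mga, a MAX partner that represses transcription, was lower at high density over the 5 constructs (-0.50 ± 0.09, 0.000527) and within F428D (-0.77 ± 0.19, 0.0487), and Mxd3 was higher over the 5 constructs (0.37 ± 0.11, 0.0257). Their part in the differences of the members was not tested.

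Other measures moved with construct in the same libraries. Trp53, which encodes p53, a brake on growth, was at 15.4, 17.7 and 131 TPM in D325H low and 272, 240.4 and 330.1 TPM in WT low. It was at 54.6, 24.7 and 80.3 TPM in S510L low and at 214, 278 and 326 TPM in F428D low. At high density Trp53 was at 59.2, 32.6 and 126 TPM in D325H, 111, 86.9 and 73.2 in S510L and 253, 279 and 266 in WT. Cdkn1a, a cell cycle inhibitor and target of p53, was at 27.3, 21.0 and 284 TPM in D325H low and 597, 548 and 597 TPM in WT low, and at 125, 56.1 and 132 TPM in S510L low and 614, 615 and 534 TPM in F428D low. The Cry2 row was at 93.6, 126 and 129 TPM in D325H low and 21.4, 27.5 and 13.2 TPM in S510L low, so the constructs also differed in their level in that row. The part of these levels in the members' differences was not tested.

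Proliferation markers (6 genes, all reaching 1 TPM) summed to 308 to 559 TPM in D325H low, 429 to 630.5 in WT low, 232 to 682 in F428D low and 512 to 771 in S510L low. Between D325H and WT at low density 0 of 6 were called (median -0.39), where 14.8% of all genes were called higher and 14.1% lower. The 11 fibroblast markers summed to 13419 to 17044 TPM in D325H low and 9603 to 12075 in WT low. Against the same background, 8 of them were called higher and 1 lower. The 7 chondrocyte markers, all above 0, summed to 907 to 1542 TPM in D325H low, 335 to 735 in WT low and 4933 to 5536 in S510L low. The 6 epithelial markers, of which 4 were tested, summed to 29.2 to 278 TPM in D325H low, 337 to 566 in WT low, 161 to 179 in S510L low and 211 to 414 in F428D low, and to 89.1 to 249 TPM in D325H high, 455 to 478 in WT high, 223 to 248 in S510L high and 389 to 466 in F428D high. Most of each sum was Krt19, which was lower in D325H than in WT at low density (-2.57 ± 0.46, limma, adjusted p = 0.000391) and high density (-1.45 ± 0.46, 0.0473) and in S510L at low density (-1.34 ± 0.46, 0.0381). Krt8 was higher in S510L at low density (1.09 ± 0.31, 0.0133). In bulk RNA, fewer cells of a kind and less RNA per cell cannot be told apart, and the part of these markers in the members' differences was not tested.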

How the data were processed

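RNA of 30 libraries was measured by single-end sequencing (50 nt, a stated depth of 20 M reads, per the labels). The authors deposited 1 table of TPM. Per the submitters' processing notes it came from kallisto (version not given in the sources used here) and GRCh37.p13, a human assembly, although the gene symbols are those of mouse (34095 of 34724, and all 36 members, are in the mouse name table), so the transcript set behind the TPM is unknown. Headings 1 to 30 were matched to the number in each sample title. The depth behind TPM is unknown, so precision rests on the spread among replicates alone, pooled over the groups. kallisto shares reads among similar transcripts, so genes with processed copies, such as Npm1, are less certain.

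Genes at 1 TPM or more in at least 3 libraries (14093) were fitted as log2(TPM + 1) with a pseudocount of 1 and 10 group means in limma 3.58.1 (R 4.3.3, variance trend), with Benjamini-Hochberg adjustment over all of them and a threshold of 0.05. The fit was tested on simulated data. All members may be named. Values by library, in all groups or in those compared, are given for fixed members of each role, and for the 3 called members with the largest rise and fall in each comparison with WT or EV within a density and between densities, or the 2 of smallest p where none was called. Exceptions were Pprc1, Polr1a between F428D and WT, and Pes1 between WT and EV, given there as differences only. Pes1, Mrto4 and Polr1c were given values by library beyond that, after their values were seen. The members, lists and tests were chosen with earlier results of these data known. Alternatives were a pseudocount of 0.1, no filter, quantile normalization, median-ratio scaling (genes of mean TPM at least 10), replicate number as a block, only the groups compared, and leaving out each library. Promoters come from RefSeq on GRCm38.p6.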

Additional observations from a re-analysis of the deposited data

How the results depend on the processing

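The count of members called was taken as kept if it stayed within 1.5 times its value, or at 0. Many of the 23 comparisons gave 0 throughout and were kept for that reason alone. The count moved beyond this in 6 comparisons after quantile normalization, 6 after median-ratio scaling, 5 with only the groups compared, 4 with the replicate block and 3 without the filter. Between D325H and WT at low density it was 31 and became 0 with only the groups compared fitted, and 14 to 35 as each library was left out. At high density it was 4 and became 1 without the filter, and 0 to 5 by library. Between S510L and WT at low density it was 0 and became 3 after quantile normalization, 3 after median-ratio scaling and 3 with the replicate block (0 to 9 by library), and at high density 2 with only the groups compared. D325H against EV gave 34 (23 to 34 by library). S510L against EV gave 0, and then 2 after quantile normalization, 2 after median-ratio scaling, 1 with the replicate block, 5 with only the groups compared and 0 to 2 by library. D325H against S510L gave 24, and then 15 without the filter, 12 after quantile normalization, 9 after median-ratio scaling and 8 to 33 by library. D325H against F428D gave 15, and then 4 with only the groups compared and 8 to 29 by library. S510L against F428D gave 3, and then 1 after quantile normalization, 0 after median-ratio scaling, 1 with only the groups compared and 1 to 6 by library. High against low density over the 5 constructs gave 1, and then 0 without the filter, 4 after quantile normalization, 5 after median-ratio scaling, 2 with the replicate block and 0 to 5 by library. Within D325H density gave 0, and then 1 after quantile normalization, 1 after median-ratio scaling, 1 with the replicate block and 0 to 2 by library. The other comparisons gave 0 in every alternative. No called difference turned its sign. The causes of these changes were not tested. Fits of only the groups compared or without a library have fewer samples, and the former also take their spread from those groups alone. Replicate numbers did not pair the libraries (correlations of same-numbered libraries from -0.23 to 0.48), so the replicate block stands only here. No depth is known for these values.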
